A study of Mus musculus with 8 samples.

Results

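The genes described here mark resting, recirculating lymphocytes, most of all naive T cells, and were followed in unsorted mouse splenocytes. The set was given by name as the transcription factors Lef1, Tcf7, Satb1, Foxp1 and Klf2, the receptors Ccr7, S1pr1 and Il7r, and the surface glycoprotein Thy1, 9 genes in all. For each gene the array row assigned to that symbol alone was taken. Lef1, Satb1, Foxp1, Klf2, Ccr7, S1pr1, Il7r and Thy1 had 1 such row each, which makes 8 of the 19938 genes with a row of their own. Tcf7 had no such row in the probe annotation used here and is not analysed here. All 8 passed the filter on low values.

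RNA came from spleens digested with collagenase and DNase I, labelled as C57/B6 background, and each of the 8 arrays (Affymetrix Mouse Gene 1.0 ST) held 1 mouse. There were 3 Sle1.3/E2-2het mice, which carried the Sle1.3 lupus genotype and had lost 1 of the copies of E2-2 (the gene Tcf4), 3 Sle1.3 mice with E2-2 intact, and 2 wild-type (WT) mice. The labels gave the sex as 2 males and 1 female for Sle1.3/E2-2het, 2 females and 1 male for Sle1.3, and 2 males for WT. The series describes the Sle1.3/E2-2het mice as having plasmacytoid dendritic cells that do not function. Ages were not given in the sources used here.

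Naive T cells circulate between blood, spleen and lymph nodes. CCR7 follows the chemokines CCL19 and CCL21 into T cell zones, S1PR1 follows sphingosine 1-phosphate (S1P) out again, and the interleukin-7 receptor keeps the cells alive while they rest. KLF2 and FOXO1 drive transcription of the homing receptors, TCF-1 (Tcf7) and LEF-1 shape T cell identity, and FOXP1 holds naive cells quiescent. Most of these genes fall when a T cell is activated, and several are also made by naive B cells, so in whole spleen they do not report on T cells alone.

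Promoter sequence is shown for the members whose RefSeq window began at the annotated gene start, because KLF2 and its relatives bind CACCC elements and Klf2 is the gene of the set that passed the test in no comparison. The windows hold the 250 bases before the start in GRCm38.p6, from RefSeq, at chr3:131110047-131110296 (plus strand) for Lef1, chr17:51833291-51833540 (minus strand) for Satb1 and chr8:72318812-72319061 (plus strand) for Klf2. Capitals mark CACCC or its complement GGGTG.

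Lef1: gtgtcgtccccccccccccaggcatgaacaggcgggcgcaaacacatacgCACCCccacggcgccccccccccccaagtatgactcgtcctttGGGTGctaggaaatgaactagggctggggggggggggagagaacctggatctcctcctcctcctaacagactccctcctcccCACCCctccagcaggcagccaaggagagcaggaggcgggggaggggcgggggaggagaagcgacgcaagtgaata
Satb1: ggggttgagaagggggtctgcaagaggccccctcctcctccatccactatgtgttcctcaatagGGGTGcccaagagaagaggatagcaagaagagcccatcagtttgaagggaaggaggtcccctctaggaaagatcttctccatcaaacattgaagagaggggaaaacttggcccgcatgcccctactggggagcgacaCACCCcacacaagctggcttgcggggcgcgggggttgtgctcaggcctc
Klf2: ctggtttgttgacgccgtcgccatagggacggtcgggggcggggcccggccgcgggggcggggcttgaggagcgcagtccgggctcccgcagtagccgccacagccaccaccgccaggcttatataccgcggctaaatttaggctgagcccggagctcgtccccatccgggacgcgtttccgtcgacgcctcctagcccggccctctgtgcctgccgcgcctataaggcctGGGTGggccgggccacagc

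CACCC occurred 3 times before Lef1, 2 times before Satb1 and 1 time before Klf2, counted on both strands. It is a common string, present in 52.0% of the 32851 mouse promoter windows of the same length. The TCF/LEF core CTTTGA, held by 13.8% of windows, and the forkhead element GTAAACA, held by 3.17%, were in none of these windows on either strand. These are letter matches and say nothing of binding. RefSeq windows were found for 6 of the 9 genes.

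The arrays differed in ways that touch every value below. On the third array of Sle1.3/E2-2het and on the third array of Sle1.3 the lowest deposited intensity was 11.2 and 10.9, against 4.57 to 5.11 on the other 6 arrays, and median log2 intensity was 6.17 on both, against 5.83 to 5.95. These 2 arrays are called the second array set, and array set was a term in the model. The interquartile range of log2 intensity was 2.41 to 2.57 in the Sle1.3/E2-2het and Sle1.3 arrays and 2.77 and 2.97 in the WT arrays. Xist, the female X-inactivation transcript, read 11.82 and 11.90 on the second-set arrays of Sle1.3/E2-2het and Sle1.3 and 10.77 and 10.68 on the other Sle1.3 arrays. It read 3.79 and 4.29 on the other Sle1.3/E2-2het arrays and 4.12 and 3.75 in WT, so 1 Sle1.3 array, the third, did not match its labelled sex. By these genes the Sle1.3 arrays were all female and the WT arrays all male, and for that comparison genotype and sex cannot be told apart. The first-set Sle1.3/E2-2het arrays read as male, so genotype and sex cannot be told apart for Sle1.3/E2-2het relative to Sle1.3 in that set either, and the second-set pair alone was of 1 sex. Tcf4, the targeted gene, read 8.18, 8.13 and 9.25 in Sle1.3/E2-2het, against 8.67, 8.63 and 9.06 in Sle1.3, with 9.02 and 8.80 in WT. Its log2 difference was -0.27 (SE 0.15, limma adjusted p = 0.575) for Sle1.3/E2-2het relative to Sle1.3. Where the probes lie relative to the altered allele is not given in the sources used here, which limits Tcf4 as a check of the labels. On the array labelled Sle1.3/E2-2het replicate 3, Tcf4 was higher than on every other array, which goes against the label of a lost copy. That array is on the scale of the second set, where it lay 0.19 above Sle1.3 replicate 3. Many results that rest on this array, though not all, are also given for the first array set alone.

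In Sle1.3 spleens, 7 of the 8 genes were lower than in WT: Satb1, S1pr1, Thy1, Lef1, Foxp1, Ccr7 and Il7r, by 1.60-fold to 2.66-fold. The share called lower was 16.5% of all tested genes, and 26.3% of those at or above the lowest mean of the set. In Sle1.3/E2-2het spleens 3 of the 8, Foxp1, Thy1 and S1pr1, were lower than in WT, beside shares of 23.4% and 39.5%. After quantile normalization 4 and 0 of the 8 were called lower in these comparisons. No gene of the set passed the test for Sle1.3/E2-2het relative to Sle1.3, where 7 of the 8 had a positive difference. Klf2 passed in no comparison. Differences are on the log2 intensity scale from limma with Benjamini-Hochberg adjustment over 14953 genes, and a call is an adjusted p under 0.05. All arrays are of whole spleen, where fewer cells of a type and less RNA per cell cannot be told apart.

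**Figure D1:**
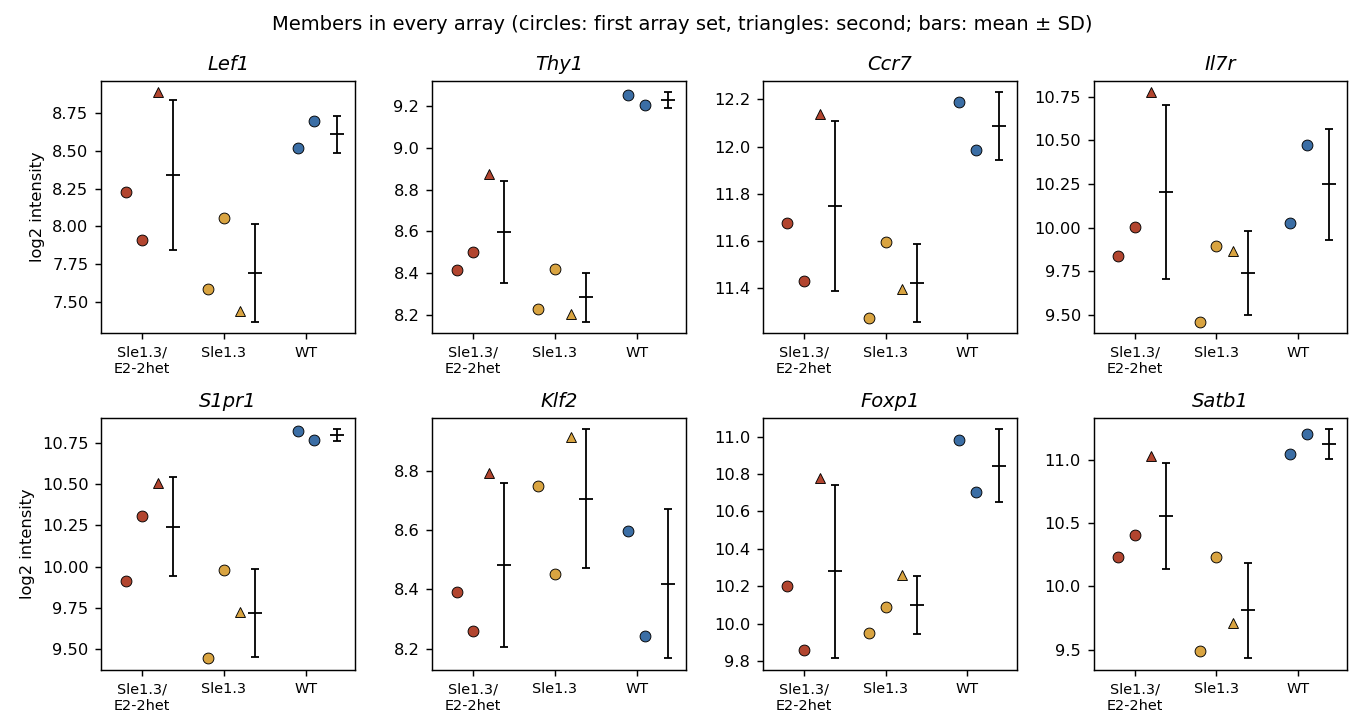
Log2 deposited intensity of the 8 measured genes (vertical axis, 1 panel per gene) in Sle1.3/E2-2het, Sle1.3 and WT from left to right. Circles are arrays of the first set, triangles the 2 arrays of the second set, and bars give mean ± SD. Satb1 lies between 9.49 and 10.23 in Sle1.3, below every array of the other groups, and Klf2 overlaps in all 3 groups.

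Satb1, a chromatin organiser needed for T cell development, was the most variable gene of the set, with a range of 1.72 log2 units over the arrays. It read 10.23, 10.41 and 11.03 in Sle1.3/E2-2het, against 9.49, 10.23 and 9.71 in Sle1.3, with 11.04 and 11.21 in WT. All 3 groups were in separate ranges, with Sle1.3 lowest, though the highest Sle1.3 array and the lowest Sle1.3/E2-2het array were nearly equal. The gene spans chr17:51736187-51833290. The Sle1.3 to WT difference was -1.41 (SE 0.24, adjusted p = 0.00279), a 2.66-fold lower level. The call held in all 8 fits that each omitted 1 array, with differences of -1.77 to -1.25, and in 10 other alternatives of covariates, scale and filter.

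Lef1, the partner of TCF-1 in T cell gene control (chr3:131110297-131224357), read 8.23, 7.91 and 8.89 in Sle1.3/E2-2het, 7.58, 8.05 and 7.44 in Sle1.3, with 8.52 and 8.70 in WT. Sle1.3 and WT did not overlap, while the Sle1.3/E2-2het arrays spread over both ranges, the second-set array above both WT arrays. Lef1 was 1.99-fold lower in Sle1.3 than in WT (log2 difference -0.99, SE 0.26, adjusted p = 0.0181). The call was lost without either WT array (adjusted p = 0.0574 without replicate 1 and 0.146 without replicate 2) and without Sle1.3 replicate 1 (adjusted p = 0.0619).

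Foxp1, a forkhead repressor of T cell activation (chr6:98925342-99522746), read 10.20, 9.86 and 10.78 in Sle1.3/E2-2het, 9.95, 10.09 and 10.26 in Sle1.3, with 10.98 and 10.71 in WT. It was lower than WT in Sle1.3 (-0.91, SE 0.18, adjusted p = 0.00479) and in Sle1.3/E2-2het (-0.73, SE 0.18, adjusted p = 0.0102). In the second of these the ranges overlapped, because the second-set Sle1.3/E2-2het array lay between the WT arrays, and the call was lost without WT replicate 1 (adjusted p = 0.0590) or without Sle1.3/E2-2het replicate 2 (adjusted p = 0.0505).

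Klf2, the zinc finger factor that switches on S1pr1 in resting T cells (chr8:72319062-72321654), read 8.39, 8.26 and 8.79 in Sle1.3/E2-2het, 8.75, 8.45 and 8.92 in Sle1.3, with 8.60 and 8.24 in WT. The groups overlapped throughout. Its differences were 0.16 (SE 0.16, adjusted p = 0.502) for Sle1.3 against WT and -0.23 (SE 0.14, adjusted p = 0.617) for Sle1.3/E2-2het against Sle1.3. For Sle1.3/E2-2het against WT it was -0.07 (SE 0.16, adjusted p = 0.758), and its sign there turned under quantile normalization (0.31).

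S1pr1, the S1P receptor for exit from lymphoid tissue (chr3:115710433-115715055), read 9.91, 10.31 and 10.51 in Sle1.3/E2-2het, 9.44, 9.98 and 9.73 in Sle1.3, with 10.82 and 10.77 in WT. Every lupus-prone array lay below both WT arrays. The gene was 2.22-fold lower in Sle1.3 (-1.15, SE 0.19, adjusted p = 0.00247) and 1.54-fold lower in Sle1.3/E2-2het (-0.62, SE 0.19, adjusted p = 0.0283), each against WT. The Sle1.3 call held in all 8 array omissions. The Sle1.3/E2-2het call held in 5 of 8 and was lost without either WT array or Sle1.3/E2-2het replicate 1, the adjusted p reaching 0.134.

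Ccr7, the receptor for entry into T cell zones (chr11:99144199-99155077), read 11.68, 11.43 and 12.14 in Sle1.3/E2-2het, 11.27, 11.60 and 11.40 in Sle1.3, with 12.19 and 11.99 in WT. Sle1.3 lay below WT in every array, and of the Sle1.3/E2-2het arrays only the second-set array lay in the WT range. The Sle1.3 to WT difference was -0.76 (SE 0.19, adjusted p = 0.0135) and the Sle1.3/E2-2het to WT difference -0.43 (SE 0.19, adjusted p = 0.0898). In the first array set alone the Sle1.3/E2-2het to WT difference was -0.53 (adjusted p = 0.0367). The Sle1.3 call was lost without either WT array or Sle1.3 replicate 1, the adjusted p reaching 0.0736.

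Il7r, the specific chain of the interleukin-7 receptor (chr15:9506159-9529941), read 9.84, 10.00 and 10.78 in Sle1.3/E2-2het, 9.46, 9.89 and 9.87 in Sle1.3, with 10.02 and 10.47 in WT. Every Sle1.3 array lay below both WT arrays, by a narrow margin. The Sle1.3 to WT difference was -0.68 (SE 0.21, adjusted p = 0.0352). It had the weakest call of the 7, lost in 4 of 8 array omissions (without WT replicate 2, Sle1.3 replicate 1 or either second-set array), where the adjusted p reached 0.290. Against WT, Sle1.3/E2-2het differed by -0.22 (SE 0.21, adjusted p = 0.435).

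Thy1, the surface glycoprotein carried by all mouse T cells (chr9:44043384-44048579), read 8.42, 8.50 and 8.88 in Sle1.3/E2-2het, 8.23, 8.42 and 8.21 in Sle1.3, with 9.26 and 9.20 in WT. Both lupus-prone groups were below WT in every array. The difference from WT was -0.99 (SE 0.16, adjusted p = 0.00203) in Sle1.3 and -0.68 (SE 0.16, adjusted p = 0.00888) in Sle1.3/E2-2het. The first call held in all 8 array omissions and the second in 7, the exception being the fit without WT replicate 2 (adjusted p = 0.0549).

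The count of 7 lower genes of 8 between Sle1.3 and WT stands beside 16.5% of all tested genes called lower, and the median difference of the set was -0.95, against -0.06 over all tested genes. All 7 had groups that did not overlap, which 24.4% of all tested genes showed in that direction. Intensity matters for this count. In the deposited values the median Sle1.3 to WT difference was 0.14 among genes of mean log2 intensity 5 to 6 and -0.30 among those of 8 to 9, and the set lies in the upper part of the scale. Among the 2686 genes at or above its lowest mean, the median difference was -0.26 and 26.3% were called lower. After quantile normalization that shift was gone (median -0.00), 8.12% of those genes were called lower, and 4 of the 8 genes kept a call. These were Satb1 (-1.31, adjusted p = 0.0114), S1pr1 (-0.97, adjusted p = 0.0163), Thy1 (-0.72, adjusted p = 0.0132) and Foxp1 (-0.74, adjusted p = 0.0204), beside 5.97% of all tested genes called lower. Lef1 (-0.71, adjusted p = 0.0843), Ccr7 (-0.59, adjusted p = 0.0702) and Il7r (-0.46, adjusted p = 0.174) were still negative but not called. The same 4 genes were the ones whose call held in every array omission. With labelled sex as the covariate S1pr1 and Foxp1 lost the call, and Foxp1 also lost it with group alone.

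**Figure D2:**
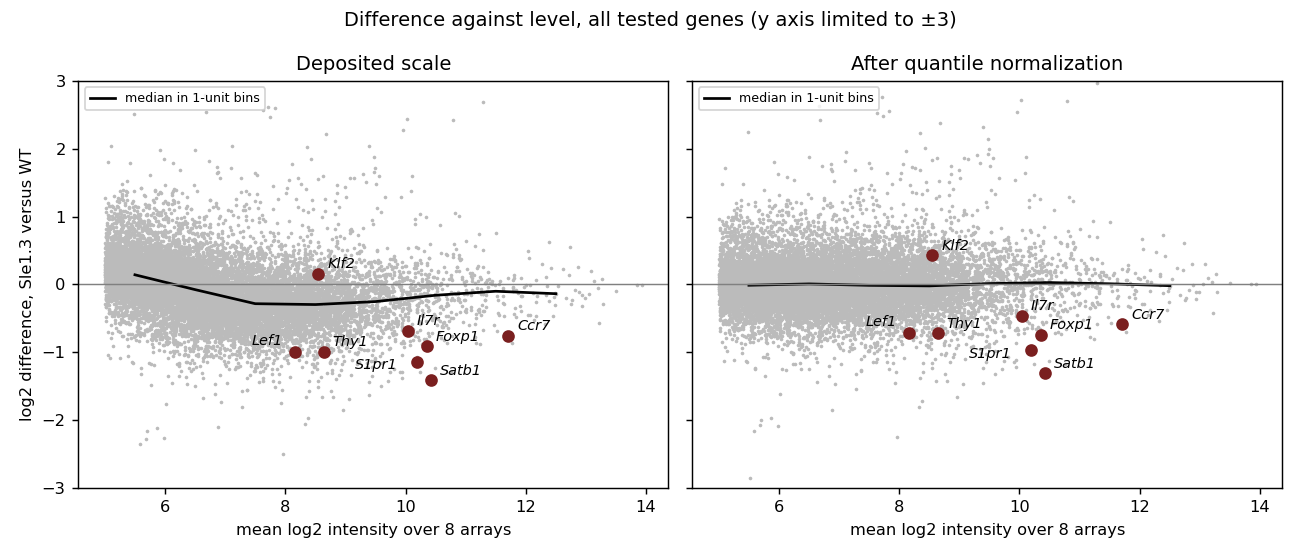
Sle1.3 to WT log2 difference of each tested gene (vertical axis, drawn between -3 and 3) against its mean log2 intensity (horizontal axis), for deposited values and after quantile normalization. The black line is the median in bins of 1 unit, and the named points are the genes of the set. The line runs from 0.14 at 5 to 6 to -0.30 at 8 to 9 in the deposited values and stays near 0 after quantile normalization, with Satb1 and S1pr1 far below it in both.

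Between Sle1.3/E2-2het and WT, the 3 genes called lower of 8 stand beside 23.4% of all tested genes, and 39.5% of the 2686 genes at or above the lowest mean of the set. All 8 genes had a negative difference, with a median of -0.53, against -0.09 over all tested genes and -0.36 among those 2686 genes. Satb1 (-0.66, SE 0.24, adjusted p = 0.0533) missed the threshold and was called in the fit that takes replicate number as a block (adjusted p = 0.0231), which called 27.4% of all tested genes lower. Lef1 differed by -0.34 (SE 0.26, adjusted p = 0.318). After quantile normalization none of the 8 was called by limma, beside 6.67% of all tested genes called lower. At an unadjusted p under 0.05, 2 were lower in that fit, where 4783 of the 14953 tested genes passed in either direction. Lef1 (0.02), Il7r (0.04) and Klf2 (0.31) turned positive. In the first array set alone 6 of the 8 were called lower, beside 23.4% of all tested genes. Foxp1 (-0.81, adjusted p = 0.00727), Thy1 (-0.77, adjusted p = 0.00501) and S1pr1 (-0.69, adjusted p = 0.0256) were among these 6. This comparison and the one of Sle1.3 with WT share the WT arrays. The second array set holds no WT array, so through the array-set term each fitted difference also draws on the third genotype. In the Sle1.3 to WT difference, Sle1.3 replicate 3 had a weight of 0.167 and Sle1.3/E2-2het replicate 3 one of -0.167. Fitted differences from WT are thus not plain differences of group means: Il7r averaged 9.74 in Sle1.3 and 10.25 in WT, with a fitted difference of -0.68.

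**Figure D3:**
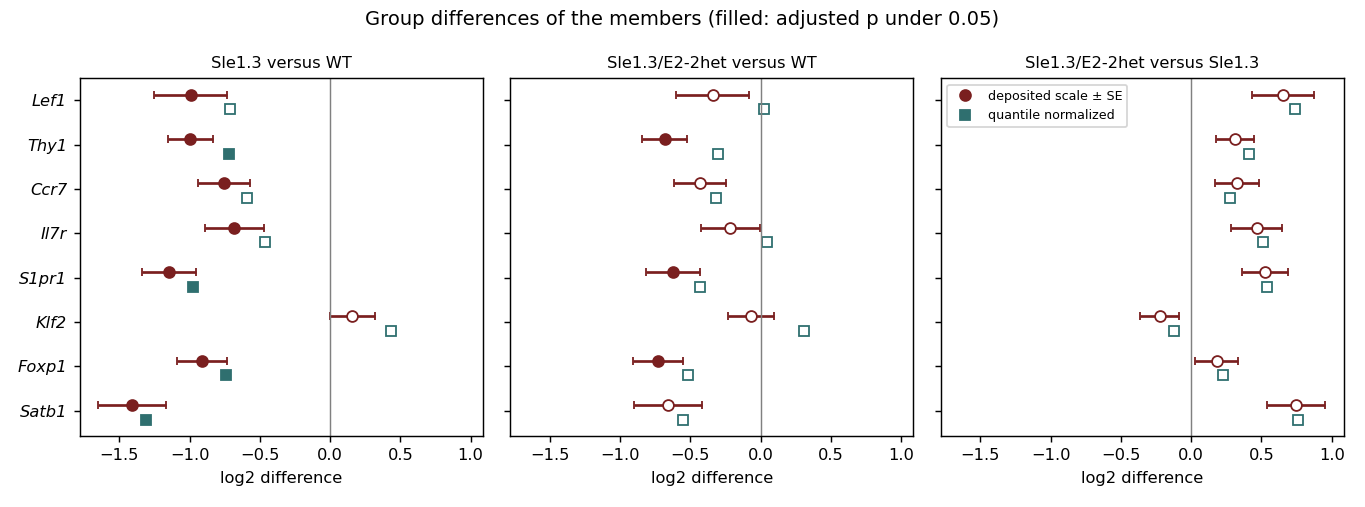
Log2 difference with its SE (horizontal axis) for each gene of the set, in panels for Sle1.3 versus WT, Sle1.3/E2-2het versus WT, and Sle1.3/E2-2het set against Sle1.3. Circles are deposited values and squares quantile-normalized values, and filled symbols have an adjusted p under 0.05. Filled circles number 7, 3 and 0 in the 3 panels, and filled squares 4, 0 and 0.

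Sle1.3/E2-2het was then set against Sle1.3, which asks what the loss of an E2-2 copy does on the lupus background, with the sexes unmatched in the first array set. None of the 8 genes was called by limma. At an unadjusted p under 0.05, 5 were higher and 0 lower, beside 1529 of the 14953 tested genes in either direction. In the first array set alone, with fewer arrays, 0 were higher and 0 lower at that threshold, beside 1649 of all tested genes. At an adjusted p under 0.05 the background was sparse, with 0.154% of all tested genes called higher and 0.461% lower. The median difference of the set was 0.40, against 0.00 over all tested genes. Satb1 had the largest difference, 0.75 (SE 0.21, adjusted p = 0.153, or 0.0520 when replicate number is a block), and was higher in all 3 same-numbered pairs. It was the single gene of the set with no overlap between the groups in this comparison, a pattern that 3.04% of all tested genes showed in the higher direction.

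The other differences in this comparison were 0.65 for Lef1 (SE 0.22, adjusted p = 0.282), 0.53 for S1pr1 (SE 0.16, adjusted p = 0.230) and 0.47 for Il7r (SE 0.18, adjusted p = 0.363). Ccr7 differed by 0.33 (SE 0.16, adjusted p = 0.519), Thy1 by 0.31 (SE 0.14, adjusted p = 0.457) and Foxp1 by 0.18 (SE 0.15, adjusted p = 0.737). S1pr1, Il7r and Thy1 were higher in 3 of 3 pairs, and Lef1, Ccr7 and Foxp1 in 2 of 3. Klf2 was higher in 0 of 3.

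These positive differences were larger in the second array set, which held 1 array of each label, than in the first, which held 2 of each. The second-set array labelled Sle1.3/E2-2het is the one whose Tcf4 reading went against its label. Lef1 differed by 1.45 in the second set and 0.25 in the first, Satb1 by 1.32 and 0.46, and Il7r by 0.91 and 0.24. S1pr1 differed by 0.78 in the second set and 0.40 in the first, Ccr7 by 0.74 and 0.12, and Thy1 by 0.67 and 0.13. Foxp1 differed by 0.52 in the second set and 0.01 in the first. Whether the sets differ was not tested, since the second has 1 pair. The count also turned on 1 mouse. Without Sle1.3 replicate 2, which had the highest Sle1.3 reading of Satb1, Lef1 and S1pr1, all 3 of these were called higher in Sle1.3/E2-2het (adjusted p = 0.00479, 0.0405 and 0.0417), beside 0.328% of all tested genes, and Satb1 differed by 1.04. In the fits without another array none of the 8 was called.

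T cell identity genes, the receptor complex, coreceptors and proximal signalling genes, serve here as an approximate measure of T cell content. The coreceptors Cd4, Cd8a and Cd8b1 mark subsets and not all T cells. Thy1, carried by all mouse T cells, is counted in the naive and homing set and differed by -0.99 in Sle1.3 against WT. Of 14 tested, 0 were higher and 1 lower in Sle1.3 than in WT, beside 16.5% of all tested genes called lower. The 1 lower gene was Lat (-0.50, adjusted p = 0.0422), a signalling adaptor. The median difference of the 14 genes was -0.20, against -0.95 for the naive and homing set. After quantile normalization none was called, and the median was 0.06, against -0.72 for the set. Their summed intensity ran between 5837 and 6952 in Sle1.3, against 7140 and 7421 in WT. Cd3d (-0.19, adjusted p = 0.588), Cd3e (-0.47, adjusted p = 0.0920) and Cd3g (-0.13, adjusted p = 0.662), all parts of the receptor complex, were not called.

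For Sle1.3/E2-2het relative to Sle1.3 the T cell identity genes had a median of -0.17, against 0.40 for the set. In the first array set alone these medians were -0.40 and 0.19. None of the 14 was called by limma, though 2 were higher and 3 lower before adjustment (p under 0.05). At that threshold 1529 of the 14953 tested genes passed in either direction. The 2 higher, named after their values were seen, were the coreceptor chains Cd8a (0.48, adjusted p = 0.248) and Cd8b1 (0.36, adjusted p = 0.463). Cd4, the helper T cell coreceptor, differed there by -0.75 on the log2 scale (adjusted p = 0.0994) and was called lower with the replicate number as a block (adjusted p = 0.0474). In the first array set alone Cd4 differed by -0.99 (adjusted p = 0.0590). Against WT, 6 of 14 were lower in Sle1.3/E2-2het, beside 23.4% of all tested genes called lower. Among the 6 were Cd3e (-0.96, adjusted p = 0.00465), Zap70 (-0.84, adjusted p = 0.0489) and Cd6 (-0.75, adjusted p = 0.0283). Cd8a (0.17) and Cd8b1 (0.16) were not called. The median of the 14 was -0.36. After quantile normalization that median was -0.01, with 1 gene higher and 1 lower. The sums were 5067, 4855 and 8181 in Sle1.3/E2-2het, the highest on the second-set array.

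**Figure D4:**
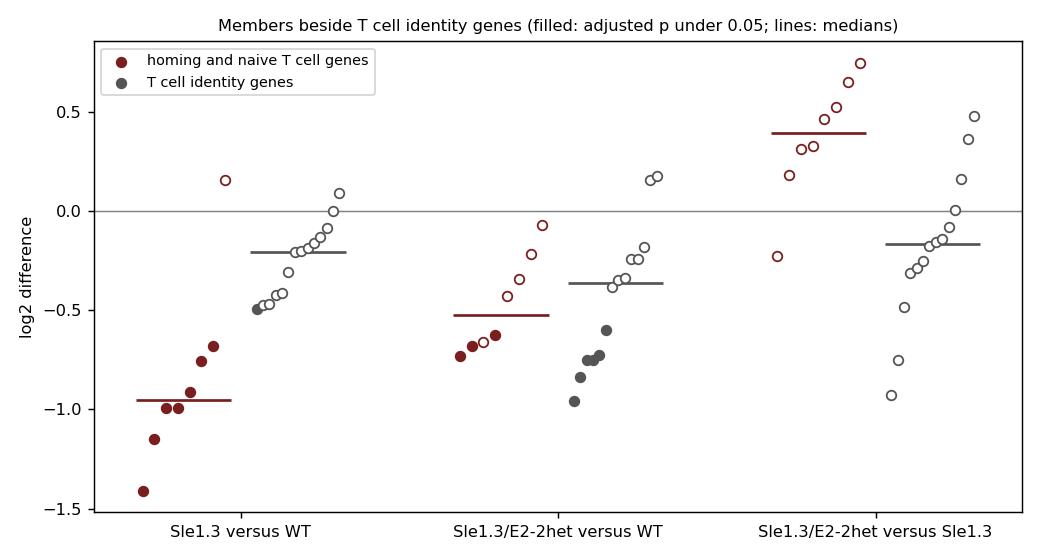
Log2 differences of the 8 naive and homing genes and of 14 T cell identity genes (1 point per gene, with the median as a bar) in the 3 comparisons. In Sle1.3 against WT the medians are -0.95 and -0.20, and in Sle1.3/E2-2het against Sle1.3 they are 0.40 and -0.17.

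Centring each array on Cd3d, Cd3e and Cd3g was tried after seeing the data. The Sle1.3 to WT difference was then -1.14 for Satb1 and -0.88 for S1pr1, and relative to Sle1.3 the Sle1.3/E2-2het difference was 0.99 for Satb1 and 0.90 for Lef1. The centring moved the median of all tested genes to 0.21 and 0.24 in these comparisons, so the differences are to be read against those shifts. No call is taken from that fit, in which limma gave all genes 1 pooled variance and the spread of the single gene did not enter.

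Genes of the same pathways were followed as lists. For all list counts below, 16.5% of all tested genes were called lower and 7.46% higher in Sle1.3 against WT. In Sle1.3/E2-2het against WT these shares were 23.4% and 10.7%. After quantile normalization 5.97% and 6.67% of all tested genes were called lower in these comparisons. At an unadjusted p under 0.05, 1529 of the 14953 tested genes passed in Sle1.3/E2-2het against Sle1.3, in either direction. Whether a list differs from these shares was not tested. Among 11 S1P and egress genes, 4 were lower and 2 higher in Sle1.3 than in WT. S1pr4, another S1P receptor of lymphocytes, was 2.01-fold lower (adjusted p = 0.00403), Spns2, the endothelial S1P exporter, differed by -0.74 (adjusted p = 0.00490) and Sphk2, an S1P-producing kinase, by -0.53 (adjusted p = 0.0244). The 2 higher, named after their values were seen, were Cd69 (0.44, adjusted p = 0.0453), which holds S1PR1 inside the cell, and S1pr5 (0.48, adjusted p = 0.0264), the S1P receptor of natural killer cells. After quantile normalization 3 were higher and 2 lower. In Sle1.3/E2-2het against WT 4 were lower and 3 higher, or 0 lower and 3 higher after quantile normalization. Against Sle1.3 none was called, nor was any at an unadjusted p under 0.05.

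Among 11 homing genes, Ccl19, the CCR7 ligand made by stromal and dendritic cells, was the 1 higher gene in Sle1.3 than in WT. It read 7.29, 7.61 and 7.73 in Sle1.3/E2-2het, 7.47, 7.30 and 7.80 in Sle1.3, with 6.23 and 6.05 in WT. The ligand was thus higher in every lupus-prone array, by 1.26 in Sle1.3 (SE 0.15, adjusted p = 6.36e-04) and 1.28 in Sle1.3/E2-2het (SE 0.15, adjusted p = 4.29e-04), while its receptor Ccr7 was lower than WT in Sle1.3. Cxcr4 (-0.58, adjusted p = 0.0167), the receptor for CXCL12, and the integrin chain Itgb7 (-0.55, adjusted p = 0.0222) were the 2 lower in Sle1.3. In Sle1.3/E2-2het 4 of 11 were lower than WT. After quantile normalization 1 was lower in Sle1.3 and 0 in Sle1.3/E2-2het, with 1 higher in each. None was called against Sle1.3, with 2 lower at an unadjusted p under 0.05.

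Of 7 tested genes of interleukin-7 signalling, 5 were lower and 0 higher in Sle1.3 than in WT, with a median of -0.53. Cish, a feedback inhibitor induced by STAT5, averaged 6.71 ± 0.25 in Sle1.3/E2-2het, 6.70 ± 0.23 in Sle1.3 (SD, n = 3 each) and 7.52 ± 0.02 in WT (SD, n = 2). All lupus-prone arrays were below WT, with a difference of -0.95 in Sle1.3 (SE 0.13, adjusted p = 0.00118). Stat5a (-0.66, adjusted p = 0.0176) and Stat5b (-0.62, adjusted p = 0.0177), the factors themselves, were also lower. After quantile normalization 1 of the 7 was called lower. In Sle1.3/E2-2het 6 of 7 were lower than WT on the deposited scale and 1 after quantile normalization. Against Sle1.3 none was called or passed an unadjusted p of 0.05.

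Of 10 TCF/LEF partners, 5 were lower in Sle1.3 than in WT, led by the corepressor Tle1. It read 5.55, 5.35 and 5.67 in Sle1.3/E2-2het, 5.23, 5.35 and 5.49 in Sle1.3, with 6.60 and 6.94 in WT, a difference of -1.48 in Sle1.3 (SE 0.15, adjusted p = 2.66e-04). Tle4, a corepressor of the same family, differed by -0.82 (adjusted p = 0.0117) and the coactivator Bcl9 by -0.71 (adjusted p = 0.0264). After quantile normalization 1 of the 10 was called. Against WT, Sle1.3/E2-2het had 7 of 10 lower, with Tle1 at -1.32 (adjusted p = 3.68e-04), or 1 of 10 after quantile normalization, and against Sle1.3 none was called or passed an unadjusted p of 0.05.

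Of 15 quiescence regulators, 10 were lower and 1 higher in Sle1.3 than in WT, with a median of -0.66. Klf3, a repressor of the KLF family, read 8.99, 8.68 and 9.43 in Sle1.3/E2-2het, 8.18, 8.59 and 8.57 in Sle1.3, with 10.31 and 9.71 in WT. It lay below WT in every lupus-prone array and was 3.24-fold lower in Sle1.3 (-1.70, SE 0.21, adjusted p = 7.75e-04), while Klf2 was not called. Klf13 (-1.16, adjusted p = 0.00116) and Foxo1 (-0.95, adjusted p = 0.00215), the activator of Il7r and Klf2, were lower too. Klf6, named after its value was seen, was the 1 higher gene (0.54, adjusted p = 0.0153). After quantile normalization 4 were lower and 1 higher. In Sle1.3/E2-2het 8 of 15 were lower than WT, or 4 after quantile normalization, among them Bach2 (-1.22, adjusted p = 0.00217), a repressor of lymphocyte effector genes. Relative to Sle1.3 none was called there, though before adjustment 4 were higher and 1 lower (p under 0.05).

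With group and array set as terms, genes of activated and memory T cells were called lower or not called in Sle1.3 on the deposited scale. Of 17 tested, 6 were lower and 0 higher in Sle1.3 than in WT, including the interleukin-2 receptor chains Il2ra (-1.25, adjusted p = 7.61e-04) and Il2rb (-1.23, adjusted p = 0.00167) and the chemokine Ccl5 (-0.88, adjusted p = 0.00509). After quantile normalization 4 were lower and 2 higher. In Sle1.3/E2-2het relative to Sle1.3, the inhibitory receptors Pdcd1 (-1.11, SE 0.16, adjusted p = 0.0115) and Ctla4 (-0.88, SE 0.14, adjusted p = 0.0204) were lower. In the first array set alone they differed by -1.36 (adjusted p = 0.00443) and -1.05 (adjusted p = 0.0168). Pdcd1 read 6.96, 6.64 and 7.71 in Sle1.3/E2-2het, 8.23, 8.11 and 8.31 in Sle1.3, with 8.03 and 8.03 in WT. For Pdcd1, every Sle1.3/E2-2het array lay below every array of the other groups. Ctla4 read 8.46, 8.74 and 9.32 in Sle1.3/E2-2het, 9.65, 9.64 and 9.85 in Sle1.3, with 8.98 and 9.18 in WT. Every Sle1.3 array of Ctla4 thus lay above both WT arrays, though it was not called there. In Sle1.3 against WT, 4 of the 17 were lower and 1 higher in the first array set alone, and 8 lower and 1 higher with the replicate block. Of the 14953 tested genes, 1595 were lower and 772 higher in the first array set, and 3036 lower and 1374 higher with the block.

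Markers of other spleen cells moved as well. All 11 neutrophil granule genes were higher in Sle1.3 than in WT, beside 7.46% of all tested genes, with a median difference of 3.16 and sums of 8507 to 28264 in Sle1.3, against 1926 and 2933 in WT. All 11 were also higher in Sle1.3/E2-2het than in WT, beside 10.7% of all tested genes, and sums there ran between 9067 and 25674. Of 10 cell cycle genes 8 were higher in Sle1.3 than in WT and 6 in Sle1.3/E2-2het. Of 10 B cell genes 2 were lower in Sle1.3 than in WT, Fcer2a (-1.08, adjusted p = 0.00326) and Cd79a (-0.71, adjusted p = 0.0183), with sums of 14531 to 18064 in Sle1.3, against 15779 and 19107 in WT. Of 9 natural killer genes 4 were lower in Sle1.3 than in WT, and 1, Klra8 (0.94, adjusted p = 0.00782), was higher in Sle1.3/E2-2het than in Sle1.3, where 0 were lower. In the first array set alone Klra8 differed there by 1.04 (adjusted p = 0.0158). Of 8 erythroid genes 6 were higher than WT in Sle1.3/E2-2het and 2 in Sle1.3, with sums of 1553 to 2908 in Sle1.3/E2-2het, 653 to 981 in Sle1.3 and 703 to 731 in WT. Of the same 8, 2, Alas2 (2.34, adjusted p = 0.0293) and Slc4a1 (2.25, adjusted p = 0.0157), were higher in Sle1.3/E2-2het than in Sle1.3. In the first array set alone these differed by 2.83 (adjusted p = 0.0201) and 2.70 (adjusted p = 0.0125). With the replicate number as a block, 6 of 9 natural killer and 5 of 8 erythroid genes were called higher and 4 of 10 cell cycle genes lower in Sle1.3/E2-2het relative to Sle1.3, against 1, 2 and 1 without it. Of the 14953 tested genes, the block fit called 82 higher and 180 lower there, against 23 and 69 without the block. Of 11 genes of the stress response to dissociation, 1 was higher and 2 lower in Sle1.3 than in WT. The part of these shifts in the differences of the naive and homing set was not tested.

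For the 3 genes with the widest range over the arrays, other genes were ranked by the root-mean-square distance between centred profiles over the 8 arrays, which share array set and genotype. The profiles nearest to Satb1 were Serpinb9 (0.158 log2 units), Cd86 (0.170), Cyp4f18 (0.172), Dusp2 (0.173) and Emb (0.175). Nearest to Lef1 were Gclc (0.149), Sirt1 (0.161), Glul (0.161), Serpinb9 (0.185) and Zfand2a (0.187). Nearest to S1pr1 were Tcp11l2 (0.107), Bcl2l11 (0.109), Bend4 (0.125), Dusp2 (0.134) and Cd55 (0.135). Of 14952 genes ranked for Satb1, S1pr1 came at rank 6, Lef1 at 17 and Klf2 at 11350. For S1pr1, Thy1 came at rank 11, and for Lef1, Ccr7 at 15.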

How the data were processed

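Gene expression was measured in splenocytes of 3 Sle1.3/E2-2het, 3 Sle1.3 and 2 WT mice, 1 array each. The authors deposited linear intensity values per probe set, made with RMA in Affymetrix Expression Console per the submitters' processing notes. The deposited intensities were converted to log2 values here. Of 35556 probe sets, 21789 carried 1 gene symbol, 1621 several and 12146 none, and the brightest single-gene row stood for each of 19938 genes. The test covered the 14953 genes whose mean on the log2 scale exceeded its 25th percentile (5.01). It was limma (version 3.58.1, R 4.3.3) with group and array set as terms, Benjamini-Hochberg adjusted p-values and a threshold of 0.05. Array set was read from the lowest intensity on each array (above or below 8). Labelled sex, which went against Xist and Y-linked genes on 1 array, was an alternative covariate.

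All named genes of the set are given. From each other list the text names up to 3 called genes with the largest differences, or the 1 with the smallest p, plus Tcf4, Xist and Cd3 genes. The members and lists were chosen with earlier results of these data known. Replicate numbers were checked as pairs. Deviations from the group means of Sle1.3/E2-2het arrays and their same-numbered Sle1.3 counterparts correlated at 0.573, 0.369 and 0.618, all above those of differently numbered arrays, of which the highest was 0.119. Array set was not removed first, so the third value includes the scale shared by the 2 second-set arrays and is no separate check of pairing. The other values are not free of that scale either, since each of these group means includes a second-set array. The labels give each array as a mouse of its own, with no litter or day, and precision is limited by how few arrays there are. Alternatives were other covariates, quantile normalization, median centring, no filter, the mean of all probe sets, an intensity trend, the replicate block and omission of each array. Centring on Cd3 genes and quantile normalization of the first array set were added after seeing the data. Promoter windows and coordinates come from RefSeq (GRCm38.p6), matched by symbol.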

Additional observations from a re-analysis of the deposited data

How the results depend on the processing

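Counts of called genes depended on covariates, scale and single arrays, and the causes were not tested. Some of the fits also held fewer arrays. For Sle1.3/E2-2het against Sle1.3, 92 genes were called, against 2 with group alone, 0 with labelled sex (392 at an unadjusted p under 0.05), 262 with the replicate block and 26 to 165 over the 8 array omissions. For the naive and homing set in that comparison 0 was called, against 1 after Cd3 centring and 0 to 3 over the omissions. For Sle1.3 against WT, 3585 genes were called, against 879 with group alone, 199 with labelled sex, 2367 in the first array set, 1856 after quantile normalization, 984 after quantile normalization of the first set, 735 after Cd3 centring and 1107 (without WT replicate 2) to 3649 over the omissions. Of the set, 7 were called, against 3 with group alone, 3 with labelled sex, 4 after quantile normalization, 3 after quantile normalization of the first set, 1 after Cd3 centring and 4 to 7 over the omissions. For Sle1.3/E2-2het against WT, 5092 genes were called, against 1076 with group alone, 492 with labelled sex, 2065 after quantile normalization, 1954 after quantile normalization of the first set, 3133 after Cd3 centring and 1634 to 5214 over the omissions. Of the set, 3 were called there, against 6 in the first array set, 0 with group alone, labelled sex, Cd3 centring or either quantile normalization, and 1 to 6 over the omissions. Quantile normalization moved the share of higher calls to 51.9% and 51.7% in the WT comparisons, against 31.1% and 31.4%. Signs turned for Klf2 in Sle1.3/E2-2het against Sle1.3 (0.018 after Cd3 centring) and in Sle1.3 against WT (-0.021 without WT replicate 2, range -0.021 to 0.34 over the omissions). In Sle1.3/E2-2het against WT they turned for Lef1 (0.025 after quantile normalization, 0.17 after Cd3 centring), Ccr7 (0.078 after Cd3 centring) and Il7r (0.045 after quantile normalization, 0.29 after Cd3 centring, -0.44 to 0.0082 over the omissions, the highest without WT replicate 2). Klf2 turned there with group alone (0.062), labelled sex (0.037), both quantile settings (0.31, and 0.32 in the first set), Cd3 centring (0.44) and without WT replicate 1 (0.11, from a range of -0.25 to 0.11 over the omissions). The replicate block, for the pairing of same-numbered arrays, changed the call of Satb1 in Sle1.3/E2-2het against WT (adjusted p = 0.0231) and of no other gene of the set. Leaving out a second-set array leaves the other without a partner, so those fits equal the first array set alone. Counts after Cd3 centring come from a fit that gave all genes 1 pooled variance, and no call is read from them.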
